A study of Mus musculus with 12 samples.

Results

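Immunoglobulin gene segments were taken from the table of gene expression of adipose tissue macrophages (ATMs) by their names, and the set was chosen by what their FPKM values had shown in these libraries between genotypes on a high fat diet: 124 of its 15393 genes have a name that starts with Ighv, Igkv, Iglv, Ighm, Ighd, Ighg, Igha, Ighj, Igkc, Igkj or Iglc. The name rule also took in Ighmbp2, a DNA helicase gene on chromosome 19 that is no immunoglobulin gene. It was kept apart, and its level lay between 1.91 and 2.82 FPKM in all 12 libraries. Of the immunoglobulin entries, Igkv19-93 was listed under 2 identifiers with the same reads and was counted once, which left 122 segments. They were 56 Ighv, 51 Igkv and 3 Iglv variable (V) segments, 4 Ighj joining segments, 6 heavy-chain constant genes and 2 light-chain constant genes. The table lists only genes with at least 10 reads in at least 1 library, so a segment could enter through a single library. Segments whose level averaged 1 FPKM (reads scaled by gene length and by the size of the library) or more across libraries were tested, which were 98 of the 122, and the other 24 are given by their values only. A segment that passed this filter through the group where it was high had to differ between groups.

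The libraries came from CD45+ CD11b+ F4/80+ cells that were sorted from the stromal vascular fraction (SVF) of fat, and each library held cells from the combined SVF of 3 mice. The groups were miR-146a-/- mice on a high fat diet (HFD), wild-type (WT) mice on HFD, miR-146a-/- mice on a normal chow diet (NCD) and WT mice on NCD, with 3 libraries each. All mice were of the C57BL/6 strain, the miR-146a deletion was carried by every cell of the body, and the diets were given from 6 weeks of age until 20 weeks. The row of miR-146a itself is not analysed here, so the deletion could not be checked in these libraries. Pools of mice were the samples, and p-values measure the spread between pools.

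An antibody is made of 2 heavy and 2 light chains, and each B cell joins 1 V segment to a joining segment (with a D segment in between for the heavy chain) and reads them through into a constant region. RNA of a V segment is therefore made in quantity only by B cells that chose it, and plasma cells, which secrete antibody, make far more of this RNA than resting B cells. Ighm encodes the heavy chain of IgM, Ighg1, Ighg2b, Ighg2c and Ighg3 those of the IgG classes and Igha that of IgA, while Igkc and Iglc2 encode the constant parts of kappa and lambda light chains. B-1 cells are a class of B cells that live in the body cavities and in visceral fat and secrete much of the natural IgM. A part of the mouse B-1 cells binds phosphatidylcholine with antibodies that pair Ighv11-2 with Igkv14-126, or Ighv12-3 with Igkv4-91.

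The sequences of these V segments are shown because these segments, above all Ighv11-2 and Igkv14-126, are followed through the libraries below. Ighv11-2 lies on the minus strand of chromosome 12 (chr12:114048241-114048704 in the table, mm10), and its second exon, the V exon, is 307 bases long in the GENCODE annotation of GRCm38, of which the 3′-most 300 bases (chr12:114048241-114048540) are shown. Igkv14-126 lies on the plus strand of chromosome 6 (chr6:67896177-67896642), and its V exon of 298 bases (chr6:67896345-67896642) is shown whole. RefSeq lists Igkv14-126 as a V segment pseudogene and GENCODE as a V gene. Of Ighv12-3 (chr12:114366521-114366580) and Igkv4-91 (chr6:68768555-68768614), both on the minus strand, the last 60 bases of the GENCODE exon are shown. Capitals run from the codon of the conserved cysteine, found by a search for 2 aromatic codons before a cysteine codon, to the 3′ end. They mark the part of the junction that the segment gives, which is the cysteine, the last framework residue, and after it the segment's part of the third complementarity-determining region.
Ighv11-2: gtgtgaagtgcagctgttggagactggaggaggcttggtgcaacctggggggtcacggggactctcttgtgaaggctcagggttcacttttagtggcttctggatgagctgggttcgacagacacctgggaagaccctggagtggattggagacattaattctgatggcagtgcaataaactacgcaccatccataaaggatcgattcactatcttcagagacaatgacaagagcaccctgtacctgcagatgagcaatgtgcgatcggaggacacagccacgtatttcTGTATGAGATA
Igkv14-126: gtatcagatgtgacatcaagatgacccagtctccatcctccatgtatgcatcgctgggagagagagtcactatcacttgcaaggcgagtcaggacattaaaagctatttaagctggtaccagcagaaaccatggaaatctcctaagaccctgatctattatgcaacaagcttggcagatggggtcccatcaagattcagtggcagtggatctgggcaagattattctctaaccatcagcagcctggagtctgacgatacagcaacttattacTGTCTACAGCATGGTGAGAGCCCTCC
Ighv12-3: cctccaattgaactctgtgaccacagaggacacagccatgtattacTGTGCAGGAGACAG
Igkv4-91: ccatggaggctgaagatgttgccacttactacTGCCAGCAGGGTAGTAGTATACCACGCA

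The nearest other Ighv segment to Ighv11-2 was Ighv11-1, with 98.7% identical bases over the V exon, which is not among the segments analysed here. Of the 50-base windows of the Ighv11-2 transcript, the length of the reads, 38.6% also occurred in another annotated gene, so reads of this pair could be assigned to either. No window of Igkv14-126 was shared, and its nearest neighbour, Igkv14-111, had 90.9% identical bases. Over the 110 V segments, 17 shared no window with another gene and 58 shared over 20 percent of their windows. Ighv12-3 and Igkv8-24 also shared none. The values of V segments that share windows depend on how the authors treated reads with several matches, which is not given in the sources used here.

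The 12 libraries held 9998868 to 11559282 reads counted to genes, and immunoglobulin reads were 0.0320% to 0.274% of them. Macrophage markers were high in every library, with a summed level of the 11 listed markers of 11882 to 13693 FPKM. Library miR-146a-/- HFD replicate 1 stood apart, with a summed level of 12 neutrophil markers of 19546 FPKM, against 143 to 1765 FPKM in the other 11 libraries. Neutrophil markers were also separate between genotypes, at 608 to 19546 FPKM in the miR-146a-/- HFD libraries, 143 to 192 FPKM in the WT HFD libraries, 715 to 1765 FPKM in the miR-146a-/- NCD libraries and 206 to 258 FPKM in the WT NCD libraries. Of 11 tested neutrophil markers, 3 were higher in miR-146a-/- on HFD and 1 on NCD (limma), and Camp, a granule protein of neutrophils, was listed at 0 in all 6 WT libraries. Summed NK cell markers were 7.99 to 59.5 FPKM in the miR-146a-/- HFD libraries, 31.0 to 54.5 FPKM in the WT HFD libraries, 91.3 to 138 FPKM in the miR-146a-/- NCD libraries and 49.3 to 73.5 FPKM in the WT NCD libraries, so that the miR-146a-/- NCD libraries were separate from both other groups they are compared with. Summed peritoneal and mesothelial markers were 9.77 to 13.9 FPKM in the miR-146a-/- HFD libraries, 6.85 to 8.52 FPKM in the WT HFD libraries, 13.4 to 22.6 FPKM in the miR-146a-/- NCD libraries and 7.84 to 11.9 FPKM in the WT NCD libraries, separate between genotypes on both diets. Summed markers of plasmacytoid dendritic cells were 67.7 to 117 FPKM in the miR-146a-/- HFD libraries and 122 to 139.9 FPKM in the WT HFD libraries, and those of T cells lay between 29.8 and 185 FPKM in all libraries and overlapped between genotypes. No marker of these 4 lists passed the test. The part of these cells in the differences between groups below was not tested.

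Immunoglobulin RNA was lower on HFD than on NCD in both genotypes. The summed level of the 122 segments was 370.1, 802 and 718 FPKM in the 3 miR-146a-/- HFD libraries and 1192, 627 and 813 FPKM in the WT HFD libraries. It was 3404, 2146 and 3540.0 FPKM in the miR-146a-/- NCD libraries and 3879.7, 2252 and 2619.6 FPKM in the WT NCD libraries. Every HFD library was below every NCD library, and the genotypes overlapped on each diet. The mean on HFD was 0.208 times that on NCD in miR-146a-/- and 0.301 times in WT. Sums over the segments carry no test here, because the segments were chosen with results of these libraries known. In RNA of a whole sorted population, fewer antibody-making cells and less immunoglobulin RNA per cell cannot be told apart.

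Ighm and Igkc carried most of this RNA and had the highest levels of all segments. Heavy-chain constant reads per light-chain constant read were 10.1 to 11.4 in the miR-146a-/- HFD libraries and 6.10 to 18.6 in the WT HFD libraries. On NCD they were 4.16 to 4.90 in miR-146a-/- and 4.11 to 6.41 in WT. The cause of this difference was not tested. Ighm (chr12:113418950-113422730) had 173, 314 and 332 FPKM in the miR-146a-/- HFD libraries, against 815, 637 and 768 FPKM in the miR-146a-/- NCD libraries. In WT it had 472, 329 and 427 FPKM on HFD, against 1176, 590.0 and 832 FPKM on NCD. The HFD and NCD libraries did not overlap in either genotype. The fold change of Ighm between HFD and NCD on the log2(FPKM + 1) scale was -1.48 ± 0.29 (SE, adjusted p = 0.0494, limma) in miR-146a-/- and -1.04 ± 0.29 (adjusted p = 0.0854) in WT, so it fell in miR-146a-/- and missed the threshold of 0.05 in WT. Without miR-146a-/- HFD replicate 1, the adjusted p of Ighm was 0.0598 in miR-146a-/- and 0.0245 in WT, and single libraries left out gave adjusted p-values up to 0.197 in miR-146a-/- (without miR-146a-/- NCD replicate 3), where the call was held without miR-146a-/- HFD replicate 3 and without WT NCD replicate 1 or 2. The call of Ighm in miR-146a-/- was also lost with a pseudocount of 0.1 (adjusted p = 0.0501), a filter of 5 FPKM (0.0503), median-ratio scaling (0.0621), only the groups compared (0.17) and no trend (0.0517). Igkc (chr6:70726435-70726757) had 77.6, 159 and 134 FPKM in the miR-146a-/- HFD libraries, against 1133, 659 and 1071 FPKM in the miR-146a-/- NCD libraries. In WT it had 325, 77.1 and 149 FPKM on HFD, against 896, 476 and 912 FPKM on NCD. Igkc thus fell in both genotypes, with log2 fold changes of -2.96 ± 0.50 in miR-146a-/- (adjusted p = 0.0326) and -2.23 ± 0.50 in WT (adjusted p = 0.0464). Both calls were near the threshold. These diet comparisons share the HFD libraries with the choice of the set. The p-values of Ighm and Igkc between diets are therefore given as descriptions. The call of Igkc in miR-146a-/- was lost without any 1 miR-146a-/- library or WT NCD replicate 3 (adjusted p of 0.0540 to 0.144), and that in WT without any 1 library other than miR-146a-/- HFD replicate 1 and WT HFD replicate 1 (adjusted p of 0.0578 to 0.153). With only the groups compared the adjusted p of Igkc was 0.0968 in miR-146a-/- and 0.0959 in WT, and in WT it was 0.052 with no filter and 0.0516 with limma voom.

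Between genotypes, Ighm and Igkc did not pass the test on either diet. On HFD the log2 fold changes of miR-146a-/- over WT were -0.62 ± 0.29 for Ighm (adjusted p = 0.294) and -0.39 ± 0.50 for Igkc (adjusted p = 0.718). On NCD they were -0.18 ± 0.29 for Ighm (adjusted p = 0.959) and 0.35 ± 0.50 for Igkc (adjusted p = 0.957). The exact two-sided permutation tests on NCD gave p = 0.6 for Ighm and p = 0.5 for Igkc, where 3 against 3 libraries cannot go below 0.1.

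**Figure D1:**
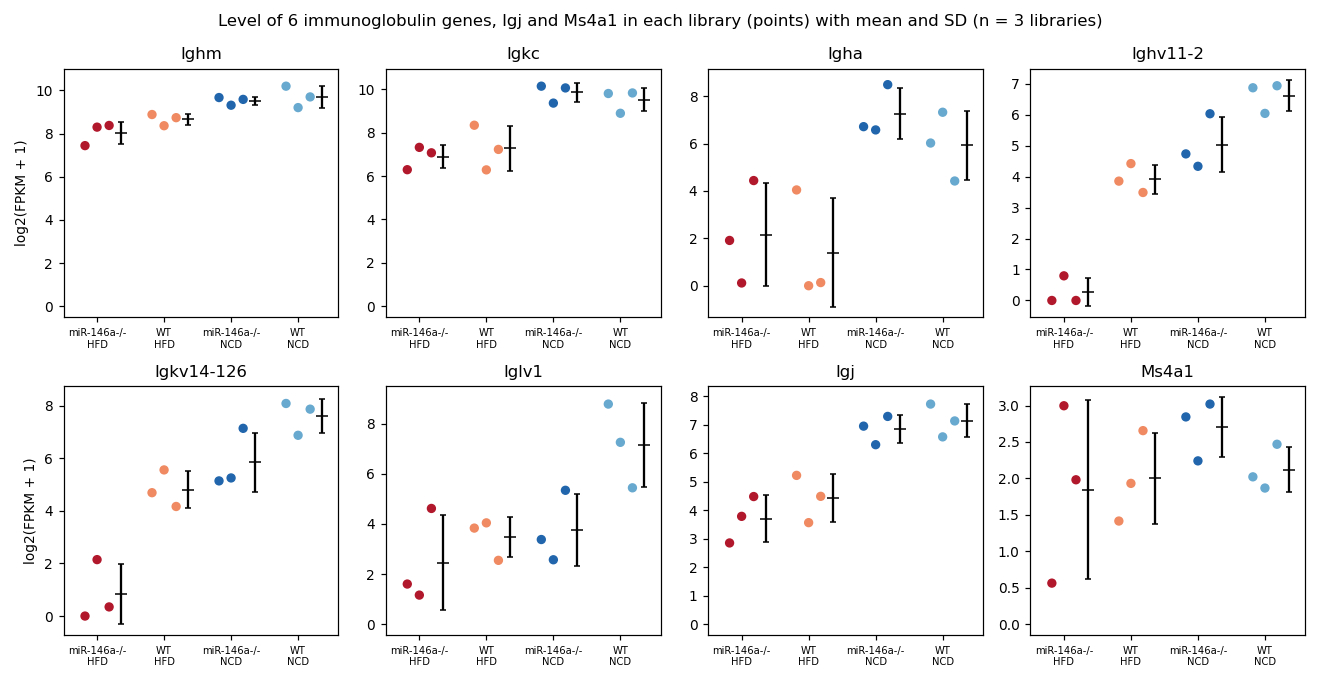
Level of 6 immunoglobulin genes, Igj and Ms4a1 in each library, as log2(FPKM + 1), by group. Points are libraries and the black marks are the mean and SD of 3 libraries. Ighm, Igkc and Igj were lower in every HFD library than in every NCD library of the same genotype, and Ighv11-2 and Igkv14-126 were lowest in the miR-146a-/- HFD libraries.

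Igj (Jchain), which encodes the chain that joins IgM and IgA into polymers and is made by antibody-secreting cells, followed the same order. It had 6.19, 12.7 and 21.2 FPKM in the miR-146a-/- HFD libraries, against 122, 77.4 and 155 FPKM in the miR-146a-/- NCD libraries, and fell by 3.14 ± 0.51 on the log2 scale (adjusted p = 0.0309). In WT it had 36.2, 10.8 and 21.3 FPKM on HFD, against 209, 93.8 and 139 FPKM on NCD, and fell by 2.72 ± 0.51 (adjusted p = 0.0246). Without miR-146a-/- HFD replicate 1 the adjusted p of Igj in miR-146a-/- was 0.0553, and the call was also lost without miR-146a-/- HFD replicate 2, miR-146a-/- NCD replicate 1 or 3 or WT NCD replicate 3 (up to 0.1400), and with only the groups compared (0.116). In WT it was lost without WT HFD replicate 2 or 3 or WT NCD replicate 1 or 3 (up to 0.0959). Of the 8 tested genes of the list for plasma cells and antibody secretion, 2 passed as lower in WT and 1 in miR-146a-/-. These were Igj in both genotypes and Sdc1 (syndecan 1, a surface protein of plasma cells) in WT, and none passed as higher. In each genotype 2 of the 8 had a fold change above 0. In WT, Tnfrsf17 of this list had 19.1, 18.1 and 24.2 FPKM on HFD, above its 16.0, 16.8 and 12.9 FPKM on NCD. Sdc1 had 11.3, 9.23 and 8.53 FPKM in the WT HFD libraries, against 35.2, 22.1 and 28.2 FPKM in the WT NCD libraries, a fold change of -1.45 ± 0.17 (adjusted p = 0.0027). The median log2 fold change of the list between HFD and NCD was -0.54 in miR-146a-/- and -0.15 in WT, against -0.03 and 0.01 over all genes tested. Of the 3 most abundant genes of the list, Xbp1, a transcription factor of secretory cells, lay between 69.2 and 101.3 FPKM in all 12 libraries and Irf4, a transcription factor of plasma cells and of macrophages, between 13.8 and 48.4 FPKM.

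The summed level of the 15 listed B cell genes was 72.0 to 119 FPKM in the miR-146a-/- HFD libraries, 101 to 112 FPKM in the WT HFD libraries, 109 to 114 FPKM in the miR-146a-/- NCD libraries and 89.2 to 93.1 FPKM in the WT NCD libraries. Its most abundant genes were Bank1 and Blnk, adaptors in B cell receptor signalling, of which Blnk is also made by macrophages, and Cd79b, a part of the receptor complex. Between HFD and NCD, 2 of the 9 tested genes had a fold change above 0 in miR-146a-/- and 4 of 9 in WT, with medians of -0.29 and -0.03 on the log2 scale, against -0.03 and 0.01 over all genes tested. Of the defining B cell genes named here, Ms4a1 (CD20) lay between 0.477 and 7.11 FPKM. Cd79a (a part of the receptor complex) lay between 0.181 and 1.505 FPKM, and Cd79b was higher, at 6.93 to 20.6 FPKM. Of the 9 tested B cell genes, 1 passed in 1 comparison: Fcrla, a protein that binds immunoglobulin inside B cells, fell in WT by 1.37 ± 0.30 on the log2 scale between HFD and NCD (adjusted p = 0.0396), and the call was lost without WT HFD replicate 1 or 2 or any 1 NCD library (adjusted p up to 0.128) and with a pseudocount of 0.1 (0.067). Of the list for V(D)J recombination, class switch and the surrogate light chain, 3 of 9 genes were measured and all were low, with Dntt (which adds bases at V(D)J joints) at no more than 2.98 FPKM, Ung (which acts in class switching) at no more than 1.54 FPKM and Vpreb1 (a part of the surrogate light chain of precursor B cells) at no more than 0.857 FPKM. Summed B-1 cell markers lay between 79.5 and 89.1 FPKM in the miR-146a-/- HFD libraries, 64.7 and 88.4 FPKM in the WT HFD libraries, 87.6 and 99.3 FPKM in the miR-146a-/- NCD libraries and 48.8 and 58.9 FPKM in the WT NCD libraries, most of it from Tppp3, and none of the 5 tested passed in any comparison. Of the 2 tested genes of the follicular and marginal zone list, Cd55 fell by 0.98 ± 0.19 between HFD and NCD in miR-146a-/- (adjusted p = 0.0494), and the call was lost without any 1 of 9 libraries (adjusted p up to 0.211), with only the groups compared (0.207), a pseudocount of 0.1 (0.0597), median-ratio scaling (0.0642) and no trend (0.0527). Pigr, which carries IgA and IgM across epithelia, reached at most 0.317 FPKM, and Cd5l, a protein of macrophages that binds IgM, had 44.8 FPKM in miR-146a-/- HFD replicate 1 and 0.835 to 9.34 FPKM in the others.

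The 8 genes outside the immunoglobulin loci whose log2(FPKM + 1) followed the log2 of the summed immunoglobulin level most closely, of 12019 ranked, were Igj (Pearson r = 0.986), Zeb1, Tpsb2, Gm11843, Fcer1a, Cma1, Tlr11 and Ddr1 (r = 0.957). The 12 libraries were the points, so the difference between diets is part of each correlation. Tpsb2 and Cma1 are mast cell proteases and Fcer1a is a chain of the IgE receptor of mast cells and basophils. Cma1 had 4.32, 3.38 and 8.42 FPKM in the miR-146a-/- HFD libraries, 10.2, 6.21 and 10.2 FPKM in the WT HFD libraries, 54.8, 35.8 and 76.2 FPKM in the miR-146a-/- NCD libraries and 91.6, 46.1 and 58.8 FPKM in the WT NCD libraries. Its HFD libraries were thus all below its NCD libraries, as for Igj.

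The heavy-chain constant genes were mainly Ighm, which held 71.2% to 100% of their reads in a library. Reads of Ighg2b and Ighg2c were found in miR-146a-/- libraries and in none of the 6 WT libraries. Ighg2b (chr12:113306389-113307933) had 40.0, 18.7 and 42.7 FPKM in the miR-146a-/- NCD libraries, against 0 reads in each of the 3 WT NCD libraries. Ighg2c (chr12:113285325-113288930), which C57BL/6 mice carry in place of Ighg2a, had 28.0, 11.3 and 22.1 FPKM in the miR-146a-/- NCD libraries, against 0 reads in each WT NCD library. Against 3 reads over the WT NCD group, the pooled level in miR-146a-/- was at least 360-fold higher for Ighg2b and at least 260-fold higher for Ighg2c. Ighg2b passed the test on NCD (adjusted p = 0.0447, limma) and Ighg2c did not (adjusted p = 0.386), and the fitted fold change of a gene at 0 in a whole group depends on the pseudocount. Both genes passed the filter on low values through miR-146a-/- libraries only. Such genes had to differ between groups, so nothing is read from these p-values. The call of Ighg2b was lost without any 1 library other than miR-146a-/- HFD replicate 1 or 2, with adjusted p-values up to 0.223 (without miR-146a-/- NCD replicate 1), and with limma voom on the recovered reads (adjusted p = 0.624). Ighg2c was called without miR-146a-/- HFD replicate 2, the library with its highest level (adjusted p = 6.45e-05). On HFD, most of the reads of both genes came from miR-146a-/- HFD replicate 2, with 11.7 FPKM of Ighg2b and 34.0 FPKM of Ighg2c. The other 2 miR-146a-/- HFD libraries had 0.0883 and 0.572 FPKM of Ighg2b and 0 and 0.318 FPKM of Ighg2c, and the WT HFD libraries had 0 reads of either gene. Per library, a count of 0 allows up to 3 reads.

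Ighg1 was present in 1 library, miR-146a-/- NCD replicate 1, with 140.02 FPKM, and had 0 reads in the other 11. Ighg3 was found in 3 of 3 miR-146a-/- NCD libraries, with 15.1, 46.6 and 23.5 FPKM, and in 1 of 3 WT NCD libraries, with 83.8 FPKM. It thus overlapped between genotypes (log2 fold change 2.60 ± 1.75, adjusted p = 0.882). Together, the IgG genes held 0.0685%, 14.4% and 0.187% of heavy-chain constant reads in the miR-146a-/- HFD libraries, 0.402%, 0% and 0.0788% in the WT HFD libraries, 14.6%, 7.02% and 5.81% in the miR-146a-/- NCD libraries and 4.38%, 0% and 0% in the WT NCD libraries. The miR-146a-/- NCD libraries were all above the WT NCD libraries, and miR-146a-/- HFD replicate 2 was the 1 HFD library with a share above 1%. Igha had 2.76, 0.0837 and 20.7 FPKM in the miR-146a-/- HFD libraries, 15.5, 0 and 0.0967 FPKM in the WT HFD libraries, 104, 94.2 and 357 FPKM in the miR-146a-/- NCD libraries and 63.9, 159 and 20.4 FPKM in the WT NCD libraries. It was below every NCD library in every HFD library of the same genotype, with fold changes of -5.10 ± 1.34 in miR-146a-/- (adjusted p = 0.132) and -4.53 ± 1.34 in WT (adjusted p = 0.103), and it did not pass the test. Of the light-chain constant genes, Iglc2 lay far below Igkc, at 1.18 to 32.5 FPKM, and passed in no comparison.

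**Figure D2:**
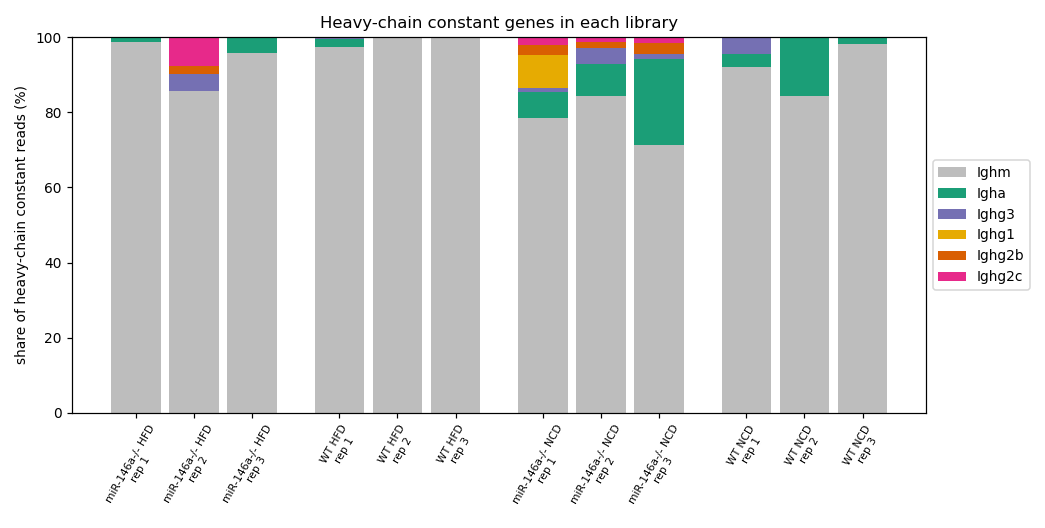
Share of each heavy-chain constant gene among the reads of the 6 heavy-chain constant genes in each library, in percent. Ighm held the largest share in all 12 libraries, and Ighg2b and Ighg2c appeared only in miR-146a-/- libraries.

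Most V segments were found in few libraries. Of the 110 segments, 47 had at least 10 reads in 1 library only, 101 in at most 5 libraries and 3 in 8 or more, namely Igkv14-126 (10 libraries), Iglv1 (10 libraries) and Ighv11-2 (9 libraries). In 77 segments over 50 percent of all reads came from a single library, and in 32 over 90 percent did. Iglv1 was the 1 V segment with reads in all 12 libraries. Segments with at least 10 reads in every library of a group numbered 0 in miR-146a-/- HFD, 3 in WT HFD (Ighv11-2, Igkv14-126 and Iglv1), 11 in miR-146a-/- NCD and 6 in WT NCD. Segments that reached 10 reads in at least 1 library numbered 37 in miR-146a-/- HFD, 25 in WT HFD, 88 in miR-146a-/- NCD and 47 in WT NCD, of which 6, 3, 34 and 8 reached it in that group alone.

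**Figure D3:**
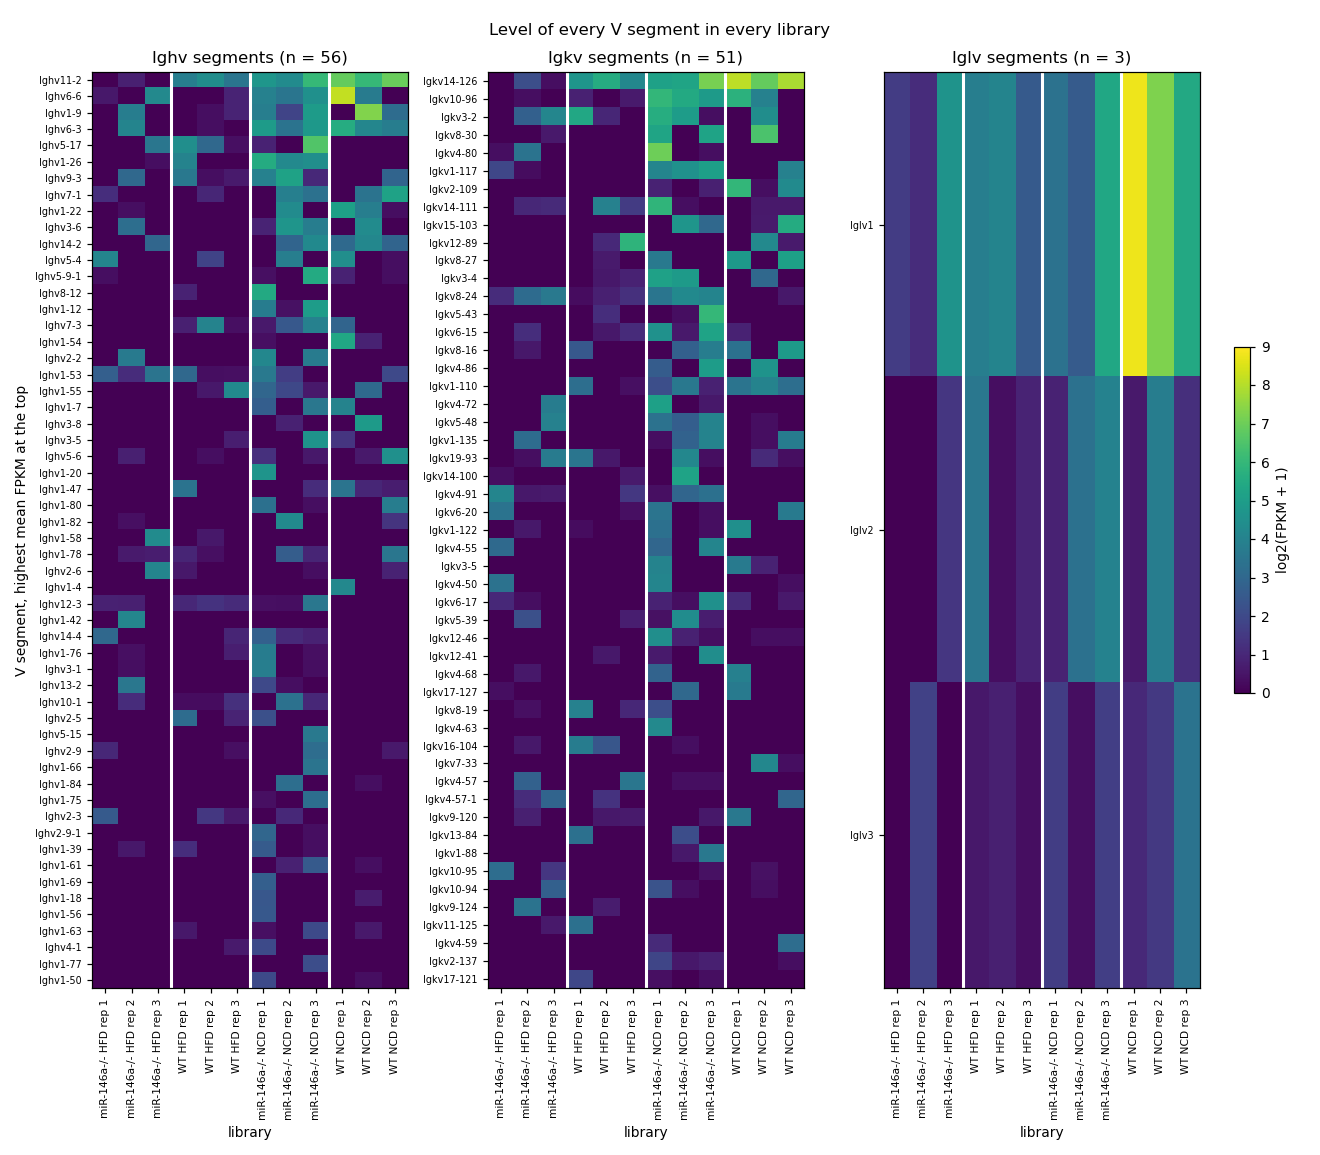
Level of each of the 110 V segments (rows) in each of the 12 libraries (columns) as log2(FPKM + 1), from 0 (dark) to 9 (yellow), with the highest mean at the top of each panel. Most rows are bright in 1 or a few libraries, Ighv11-2 and Igkv14-126 are bright in 9 and 10 libraries, and the miR-146a-/- NCD columns hold the most filled cells.

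Ighv11-2 and Igkv14-126 were the most abundant Ighv and Igkv segments by mean level, and both had their lowest mean in miR-146a-/- HFD, followed by WT HFD, miR-146a-/- NCD and WT NCD. They were singled out from the comparison of genotypes on HFD, so their values on HFD are a description with no test. Ighv11-2 had 0, 0.735 and 0 FPKM in the miR-146a-/- HFD libraries (0, 3 and 0 reads), against 13.4, 20.4 and 10.2 FPKM in the WT HFD libraries (54, 82 and 36 reads). Igkv14-126 had 0, 3.43 and 0.273 FPKM in the miR-146a-/- HFD libraries (0, 14 and 1 reads), against 24.9, 46.2 and 17.0 FPKM in the WT HFD libraries (100, 186 and 60 reads). The groups did not overlap, and the log2 fold changes were -3.65 ± 0.45 for Ighv11-2 and -3.98 ± 0.69 for Igkv14-126. With a pseudocount of 0.1 they were -6.13 and -5.73, since levels near 0 depend on it. Of the counterparts of these segments in antibodies to phosphatidylcholine, Ighv12-3 was low on HFD, with 0.769, 0.746 and 0 FPKM in the miR-146a-/- HFD libraries, against 1.01, 1.51 and 1.15 FPKM in the WT HFD libraries. Igkv4-91 had 16.0 FPKM in miR-146a-/- HFD replicate 1, where it was the first Igkv segment with 28.6% of Igkv reads (62 of 217, Wilson 95% interval 23.0% to 34.9%), and at most 1.74 FPKM in the other 5 HFD libraries.

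The NCD libraries were not used to single out these segments, and on NCD both were also lower in miR-146a-/- by their means. Ighv11-2 had 25.6, 19.1 and 64.2 FPKM in the miR-146a-/- NCD libraries, against 116, 64.7 and 121 FPKM in the WT NCD libraries. Every miR-146a-/- library was below every WT library, though the nearest pair was 64.2 and 64.7 FPKM. The log2 fold change was -1.58 ± 0.45 and did not pass the test over all genes (adjusted p = 0.469, limma), and the exact two-sided permutation p of 0.1 is the smallest that 3 against 3 libraries can give. Igkv14-126 had 34.3, 37.2 and 140.4 FPKM in the miR-146a-/- NCD libraries, against 271, 117 and 234 FPKM in the WT NCD libraries. These groups overlapped, the log2 fold change was -1.77 ± 0.69 (adjusted p = 0.719), and the exact permutation p was 0.2. The counterparts Igkv4-91 and Ighv12-3 went the other way on NCD, at low levels. Igkv4-91 had 0.281, 6.61 and 8.90 FPKM in the miR-146a-/- NCD libraries (1, 25 and 34 reads), against 0 reads in each WT NCD library. Ighv12-3 had 0.279, 0.262 and 10.9 FPKM (1, 1 and 42 reads), against 0 reads in each WT NCD library. The genotype effect on HFD minus that on NCD was -2.07 ± 0.63 for Ighv11-2 and -2.21 ± 0.97 for Igkv14-126, and it rests on the HFD libraries that singled them out. Between diets, the log2 fold changes of HFD over NCD were -4.76 ± 0.45 in miR-146a-/- and -2.69 ± 0.45 in WT for Ighv11-2, and -5.02 ± 0.69 in miR-146a-/- and -2.81 ± 0.69 in WT for Igkv14-126. In each genotype all HFD libraries were below all NCD libraries for both segments. These diet comparisons share the HFD libraries with the choice of the segments, so they carry no test here.

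A share of the V segment reads of a locus does not depend on how much immunoglobulin RNA a library held. Ighv11-2 made up 0%, 0.838% and 0% of Ighv reads in the miR-146a-/- HFD libraries and 15.0%, 38.9% and 26.3% in the WT HFD libraries. With 147 to 358 Ighv reads in these miR-146a-/- libraries, the upper Wilson 95% bounds were 2.55%, 2.43% and 1.26%, and the lower bounds in the WT HFD libraries were 11.7%, 32.5% and 19.6%. On NCD the share was 7.57%, 8.54% and 13.1% in the miR-146a-/- libraries and 19.0%, 18.6% and 50.2% in the WT libraries, again without overlap. Igkv14-126 made up 0%, 5.74% and 0.324% of Igkv reads in the miR-146a-/- HFD libraries and 18.1%, 62.4% and 18.3% in the WT HFD libraries. On NCD its share was 5.50%, 11.5% and 27.2% in the miR-146a-/- libraries and 53.9%, 35.9% and 55.3% in the WT libraries. In all 3 WT NCD libraries Igkv14-126 was the first Igkv segment by reads, and Ighv11-2 was the first or second Ighv segment. The summed level of all Ighv segments did not follow the genotype, with 37.6, 91.0 and 82.1 FPKM in the miR-146a-/- HFD libraries, against 92.0, 52.4 and 39.2 FPKM in the WT HFD libraries. The intervals cover counting error only, and cells of a single clone can give many reads.

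**Figure D4:**
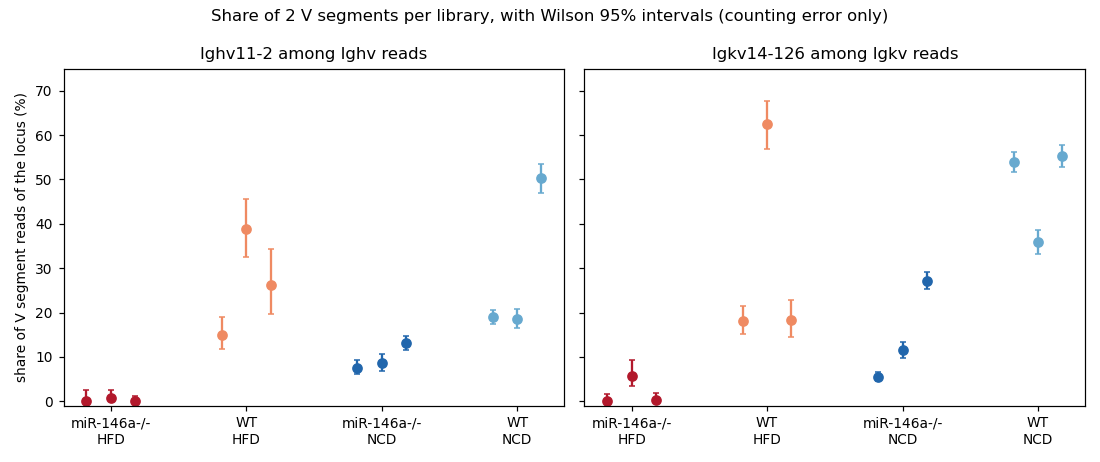
Share of Ighv11-2 among Ighv reads (left) and of Igkv14-126 among Igkv reads (right) in each library, in percent, with Wilson 95% intervals that cover counting error. In the miR-146a-/- libraries the share of Ighv11-2 was lower than in every WT library of the same diet, and the same holds for Igkv14-126.

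The V segment reads were spread over more segments in the miR-146a-/- NCD libraries than in the WT NCD libraries. The effective number of segments, the inverse of the summed squares of their shares of reads, was 15.3, 12.6 and 12.1 Ighv segments in the miR-146a-/- NCD libraries, against 3.50, 3.98 and 3.42 in the WT NCD libraries. For Igkv it was 11.9, 12.2 and 8.55 in the miR-146a-/- NCD libraries, against 3.08, 4.48 and 3.01 in the WT NCD libraries. Both loci were separate between genotypes on NCD. When each library was thinned to the reads of the smallest one, 137 Ighv reads, the expected number of Ighv segments was 25.9, 19.6 and 23.3 in the miR-146a-/- NCD libraries, against 10.9, 11.4 and 11.7 in the WT NCD libraries. In 217 Igkv reads it was 25.7, 19.3 and 19.4 Igkv segments in the miR-146a-/- NCD libraries, against 11.7, 11.7 and 12.7 in the WT NCD libraries. Without Ighv11-2 the effective number of Ighv segments was 14.4, 11.6 and 11.6 in the miR-146a-/- NCD libraries, against 2.63, 3.06 and 6.17 in the WT NCD libraries. Without Igkv14-126 it was 10.98, 11.4 and 12.3 Igkv segments in the miR-146a-/- NCD libraries, against 6.26, 4.37 and 7.51 in the WT NCD libraries. The genotypes stayed separate on NCD without these 2 segments. Summed markers of NK cells, mesothelium, neutrophils, B cells and B-1 cells were separate between the same libraries. The listed B cell genes summed to 109 to 114 FPKM in the miR-146a-/- NCD libraries, against 89.2 to 93.1 FPKM in the WT NCD libraries. Sums of the T cell, plasma cell, and follicular and marginal zone lists overlapped. The part of these cells was not tested.

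On HFD the effective numbers overlapped for Ighv, with 3.77, 7.68 and 5.49 in the miR-146a-/- libraries, against 6.97, 3.83 and 3.26 in the WT libraries. For Igkv they were 5.56, 9.33 and 7.01 in the miR-146a-/- HFD libraries, against 6.18, 2.31 and 2.55 in the WT HFD libraries, which also overlapped. The thinned numbers overlapped on HFD too, at 7.16 to 13.9 Ighv segments in the miR-146a-/- libraries and 12.7 to 17.0 in the WT libraries. These measures over many segments are given with no test. Segments that reached 10 reads in no library are not among those analysed here, and reads of segments that share windows may be counted for another segment, so the numbers are those of this table and bound the segments in use in neither direction.

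**Figure D5:**
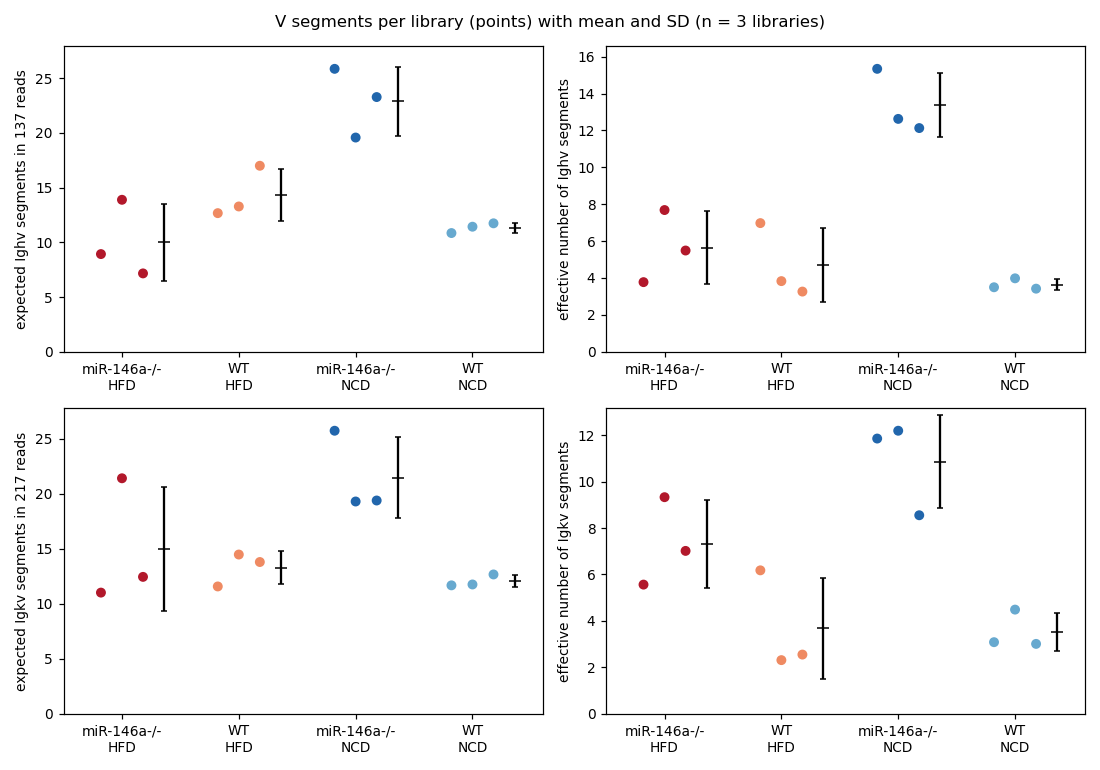
Number of Ighv (top) and Igkv (bottom) segments in each library, as the number expected after thinning to 137 Ighv or 217 Igkv reads (left) and as the effective number (right). Points are libraries and the black marks are the mean and SD of 3 libraries. The 3 miR-146a-/- NCD libraries lie above the 3 WT NCD libraries in all 4 panels.

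Other abundant V segments were mostly high in 1 library or in a few. Ighv6-6 had 291 FPKM in WT NCD replicate 1, which held 78.6% of its reads, and 0 to 21.7 FPKM elsewhere. Ighv1-9 had 157 FPKM in WT NCD replicate 2 and 0 to 29.8 FPKM elsewhere, and Ighv5-17 had 93.6 FPKM in miR-146a-/- NCD replicate 3 and 0 to 20.8 FPKM elsewhere. Igkv4-80 had 129 FPKM in miR-146a-/- NCD replicate 1, which held 91.8% of its reads. Igkv8-30 was found at 37.5 and 35.9 FPKM in 2 miR-146a-/- NCD libraries and at 85.9 FPKM in WT NCD replicate 2, and at 0 to 0.527 FPKM in the other 9. A level carried by 1 library of a group does not separate groups, and none of these 5 segments passed in any comparison.

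Other segments were shared by the libraries of a group. Ighv6-3 had 0, 0.246 and 0 FPKM in the WT HFD libraries, against 46.3, 16.6 and 13.1 FPKM in the WT NCD libraries, and was lower by 4.40 ± 0.98 on the log2 scale (adjusted p = 0.0461, limma). It passed the filter on low values through libraries other than WT HFD, and the set was chosen by the HFD libraries. Nothing is therefore read from this p-value. In miR-146a-/- it had 0, 15.8 and 0 FPKM on HFD, against 29.7, 9.74 and 26.9 FPKM on NCD, and these groups overlapped (fold change -3.03 ± 0.98, adjusted p = 0.219). Its call in WT was lost without any 1 WT or miR-146a-/- NCD library, with adjusted p-values up to 0.152 (without WT NCD replicate 1), with a pseudocount of 0.1 (0.0557), with no filter (0.0527) and with limma voom (adjusted p = 0.18). Igkv8-24 had 10.4, 18.5 and 15.6 FPKM in the miR-146a-/- NCD libraries, against 0, 0 and 0.511 FPKM in the WT NCD libraries, and was higher by 3.75 ± 0.55 (adjusted p = 0.0447). It passed the filter on low values through miR-146a-/- libraries, so nothing is read from this p-value. On HFD it had 1.22, 7.82 and 11.3 FPKM in the miR-146a-/- libraries, against 0.241, 0.721 and 1.37 FPKM in the WT libraries, which overlapped (fold change 1.86 ± 0.55, adjusted p = 0.151). The call of Igkv8-24 on NCD was lost without any 1 library other than miR-146a-/- HFD replicate 1 or 3, with adjusted p-values up to 0.186 (without WT NCD replicate 2), and with limma voom (adjusted p = 0.365). Ighv1-26 had 45.9, 17.9 and 20.8 FPKM in the miR-146a-/- NCD libraries, against 0 in the 3 WT NCD libraries, and 15.3 FPKM in WT HFD replicate 1, and it did not pass the test in any comparison. Igkv10-96 had 61.2, 42.8 and 29.1 FPKM in the miR-146a-/- NCD libraries, against 54.4, 14.3 and 0 FPKM in the WT NCD libraries, and at most 0.760 FPKM in the 6 HFD libraries. Igkv1-117 had 16.2, 22.6 and 32.4 FPKM in the miR-146a-/- NCD libraries, against 0, 0 and 14.5 FPKM in the WT NCD libraries, and Igkv3-2 ranged over 0 to 47.6 FPKM with no order by group.

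Iglv1, the lambda V segment with the highest mean, had 2.03, 1.23 and 23.6 FPKM in the miR-146a-/- HFD libraries, 13.3, 15.5 and 4.84 FPKM in the WT HFD libraries, 9.40, 4.94 and 39.6 FPKM in the miR-146a-/- NCD libraries and 441, 152 and 42.5 FPKM in the WT NCD libraries. It was lower in every miR-146a-/- NCD library than in every WT NCD library, and the test was not passed (log2 fold change -3.40 ± 1.10, adjusted p = 0.597). In WT it was lower in every HFD library than in every NCD library (fold change -3.69 ± 1.10, adjusted p = 0.107). Iglv2 reached at most 15.0 FPKM and Iglv3 at most 9.68 FPKM. The 4 Ighj segments are 48 to 54 bases long, about the length of 1 read, and their summed 11 to 87 reads in a library were too few to compare.

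The counts of segments past the test were small. On NCD, 2 of 98 segments were higher in miR-146a-/- than in WT (2.04%, Ighg2b and Igkv8-24), against 0.0578% of the 12119 genes tested that were higher, 0.066% that were lower and 0.124% in either direction, and no segment was lower. Both passed the filter on low values through miR-146a-/- libraries, since Ighg2b had 0 reads in all 6 WT libraries and Igkv8-24 at most 1.37 FPKM in them, so this share is partly set by the filter and nothing is read from it. The same holds in part for the median log2 fold change, which was 0.80 over the segments and 0.02 over all genes. The groups did not overlap in 11 of 98 segments that were higher in miR-146a-/- (11.2%), against 10.4% of all genes, and in 2 that were lower (2.0%), against 7.91% of all genes. On HFD, 2 of 98 segments were lower in miR-146a-/-, the 2 singled out from that comparison, beside 0.347% of all genes that were lower and 0.281% that were higher, and the median was 0 over the segments and -0.02 over all genes. The groups did not overlap in 1 segment that was higher, Ighg2b, beside 8.51% of all genes, and in 5 that were lower, beside 11.8% of all genes. Between HFD and NCD, 3 segments were lower in WT (3.06%, Igkc, Ighv6-3 and Ighv11-2), against 2.15% of all genes. In miR-146a-/- 4 were lower (4.08%, Ighm, Igkc, Ighv11-2 and Igkv14-126), against 0.66% of all genes that were lower and 0.759% in either direction. Both counts hold Ighv11-2, and that in miR-146a-/- also holds Igkv14-126. The diet comparisons of these segments carry no test here, so nothing is read from these shares. No segment was higher on HFD in either genotype, where 0.825% of all genes were higher in WT and 0.099% in miR-146a-/-. The median log2 fold change between HFD and NCD was -0.34 over the segments in WT and -1.34 in miR-146a-/-, against 0.01 and -0.03 over all genes. The groups did not overlap in 12 segments lower in WT (12.2%), against 15.7% of all genes, and in 16 lower in miR-146a-/- (16.3%), against 11.7% of all genes. Of those higher on HFD, 4 segments did not overlap in WT (4.1%), against 14.6% of all genes, and 0 in miR-146a-/-, against 5.72% of all genes. The share of segments that did not overlap was below that of all genes among those higher on HFD, in both genotypes. Among those lower on HFD it was below that of all genes in WT and above it in miR-146a-/-. Segments such as Ighv1-12 and Igkv12-46, with 0 reads in all 6 HFD libraries, passed the filter on low values through NCD libraries. The medians and shares between diets are thus partly set by the filter, and nothing is read from them. The genotype effect differed between diets for 0 of 98 segments and 0 of 12119 genes (limma), with 7 segments and 1481 genes at an unadjusted p under 0.05, and limma voom called 0 segments. The comparisons share libraries, and both diet comparisons share the HFD libraries with the comparison that singled out Ighv11-2 and Igkv14-126. Without miR-146a-/- HFD replicate 1, the segments called numbered 2 between genotypes on HFD and on NCD, 5 between diets in WT and 2 between diets in miR-146a-/-.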

How the data were processed

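Values were FPKM as deposited, which the authors computed from reads counted to genes, gene length and library total, with no further scaling between libraries. Multiplied back, all 184716 values gave whole reads within 1e-06 reads. RNA was sequenced from stranded libraries depleted of ribosomal RNA, as single reads of 50 bases. The submitters' processing notes name Novoalign, DESeq2 and mm10, without versions or roles.

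Groups came from the sample labels, which give no batch. Genes that averaged 1 FPKM or more were tested on the log2(FPKM + 1) scale with limma 3.58.1 (lmFit and eBayes with trend and robust estimate, statmod 1.5.0) in R 4.3.3, with a mean per group over all 12 libraries and Benjamini-Hochberg adjustment over 12119 genes in each comparison (threshold 0.05). The fit was tested on simulated reads with a capped spread between libraries and with changes only in genes above a minimum of reads. That setting does not cover V segments with most of their reads in a single library. Fold changes are on the log2(FPKM + 1) scale, which understates changes of low genes. Sums, shares and numbers of segments are descriptions. Shares have Wilson 95% intervals, and a count of 0 allows up to 3 reads. Single values on NCD had exact permutation tests.

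The segments named are Ighv11-2, Igkv14-126, Ighv12-3 and Igkv4-91, each constant gene, the 6 Ighv, 6 Igkv and 3 Iglv segments with the highest mean FPKM and those that passed in a comparison. From each marker list come the genes past the test and up to 3 with the highest mean. A few others, such as Tnfrsf17, Ms4a1 and Cd79a, are named beside them. The segments, the lists and these rules were chosen with earlier results of these data known. Sequences and shared windows came from GENCODE vM21 (GRCm38), as no V segment had an entry in the RefSeq promoter table. Alternatives were other pseudocounts, filters and scalings, only the groups compared, array weights, no trend, the replicate number as a block, limma voom on recovered reads and each library left out. Tables were made in Python 3.11.15 (pandas 2.3.3, numpy 2.4.6, scipy 1.17.1) and plots in matplotlib 3.10.9.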

Additional observations from a re-analysis of the deposited data

Results flagged for a closer look

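Ighv12-3 moved in opposite directions between genotypes on the 2 diets: on HFD each miR-146a-/- library was below each WT library (0.769, 0.746 and 0 FPKM, against 1.01, 1.51 and 1.15 FPKM), and on NCD each miR-146a-/- library was above each WT library (0.279, 0.262 and 10.9 FPKM, against 0, 0 and 0 FPKM). The genotype effect on HFD minus that on NCD was -2.03 on the log2(FPKM + 1) scale and did not pass the limma test of that difference (adjusted p = 0.448). The levels rested on 0 to 6 reads in all libraries but miR-146a-/- NCD replicate 3, which had 42.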

How the results depend on the processing

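Many calls were near the threshold, and the number of segments called moved with many settings. For the difference of genotype effects it was 0 and moved in 3 of 21 alternatives. Between genotypes on HFD it was 2, and it was 1 with a pseudocount of 0.1, with no filter, with only the groups compared and with the replicate block, 6 with array quality weights and 0 with limma voom. On NCD it was 2, and it was 5 with only the groups compared, 1 with the replicate block and 0 with voom. Between diets in WT it was 3, and it was 1 with a pseudocount of 0.1, no filter, the replicate block or voom, 5 with only the groups compared and 6 with array quality weights. Between diets in miR-146a-/- it was 4, and it was 2 with only the groups compared or voom and 9 with array quality weights. With single libraries left out the counts ranged over 0 to 2 on HFD, 0 to 2 on NCD, 0 to 5 between diets in WT, 1 to 6 between diets in miR-146a-/- and 0 to 2 for the difference of genotype effects. The cause of these moves was not tested.

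The directions held more firmly than the calls: under every alternative run, Ighm, Igkc, Igj, Ighv11-2 and Igkv14-126 were lower on HFD in the comparisons where they are named. Sdc1 stayed past the threshold in WT in all 22 alternatives. The difference of Ighm between genotypes on NCD was -0.18 and ranged over -0.425 to 0.0713 with single libraries left out, above 0 without WT NCD replicate 1 alone (exact permutation test). The log2 ratio of the summed level ranged over -2.54 to -1.96 between diets in miR-146a-/- and -1.99 to -1.42 in WT.

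Replicate numbers name libraries and do not pair them: of 12 pairs with the same number, 2 had a correlation of deviations over 0.1 (range -0.051 to 0.123) and 6 correlated best with their own number, and the block gave the counts above. With the replicate block, calls were lost for Ighg2b on NCD (adjusted p = 0.14), Ighm between diets in miR-146a-/- (0.0747) and Igkc (0.0533), Ighv6-3 (0.0735) and Fcrla (0.0715) between diets in WT. Depth limits the single V segments most, with 137 to 2252 Ighv reads in a library.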
